A study of Mus musculus with 7 samples.

Results

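The cells described here were Hox-positive mesenchymal cells of the neural crest in the control pharyngeal apparatus of the mouse, followed from embryonic day (E) 9.5 to E10.5. Members were chosen by the measured counts of a few genes. A cell was a member if it had at least 1000 detected genes, at most 10% of its unique molecular identifiers (UMIs) from mitochondrial genes, at least 3 UMIs of Twist1, Prrx1 and Prrx2 together, no UMI of Sox10 and at least 1 UMI of Hoxa2, Hoxb2, Hoxa3, Hoxb3 or Hoxd3. This gave 9945 members of the 30734 barcodes in the 3 control libraries and of 65862 barcodes in the series of 7 libraries. There were 1525 members in the E9.5 library, 2892 in E10.5 replicate 1 and 5528 in E10.5 replicate 2.

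Neural crest cells leave the dorsal neural tube, migrate into the pharyngeal arches and there become mesenchyme, which builds skeleton, connective tissue and the smooth muscle of the arch arteries and outflow tract. Twist1, Prrx1 and Prrx2 are transcription factors of this mesenchyme, while Sox10 marks migrating crest and glia. Hox genes divide the arches along the body axis: crest of the first arch carries none, group 2 genes begin in the second arch, and group 3 genes begin in the third.

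All 3 libraries came from embryos of a mixed Swiss-Webster background and of genotype Wnt1-Cre/+;ROSA-EGFPf/+, in which Cre driven by Wnt1 turns on EGFP in the crest lineage, dorsal neural tube included. Live EGFP-positive cells were sorted after enzymatic dissociation of pooled embryos. The E9.5 tissue was the pharyngeal apparatus with heart and neural tube, listed by the study as arch 1 to arch 3. The E10.5 tissue ran from arch 2 to arch 6 with heart and neural tube. A second set of 3 libraries, 1 at E9.5 and 2 at E10.5, carried the same 2 alleles and gave a further comparison. Their titles call them Tbx1 null, their genotype label reads Tbx1+/-, and the study lists them as Tbx1-/-. They are called Tbx1 null below as in the titles. Each library was a pool of embryos, and the study's methods call the E10.5 libraries of a genotype biological replicates. The 3 control libraries were made with kit version 3.1. Stage also could not be told apart from library and from dissection. The study did not determine the sex of the embryos, and Xist, given below, differed between the stages. Stage could thus not be told apart from sex either.

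UMIs of the members summed to 40964499 at E9.5, 77118100 in E10.5 replicate 1 and 109013484 in replicate 2, with a median of 25476, 25010.5 and 18312.5 UMIs per cell. The libraries shared between 24 and 39 cell barcodes pairwise. A doublet score marked 16.3%, 13.9% and 14.4% of the members, and the counts of calls without them are given in the closing section. Xist, transcribed from the inactive X, stood at 0.0292 counts per 1000000 UMIs (CPM) at E9.5 and 227 and 346 CPM at E10.5, while the Y-linked gene Ddx3y lay between 19.9 and 23.3 CPM in all 3. Gm42418, which overlaps ribosomal RNA sequence, read 428, 2293 and 4119 CPM in the same order, and in the Tbx1 null cells it went the other way, from 1442 to 170 and 417 CPM. The part of these differences in the results was not tested.

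The genes of the gate describe the members. They stood in the table that was fitted, and Twist1, Prrx2 and Hoxa3 are among the calls counted below, but no test of a gate gene is read here. Twist1 stood at 729 CPM at E9.5 and at 362 and 357 CPM at E10.5. Prrx1 read 199, then 294 and 404 CPM, and Prrx2 334, then 204 and 193 CPM. Hoxa2, the main gene of second-arch identity, stood at 60.03 CPM at E9.5 and 82.1 and 85.7 CPM at E10.5, and Hoxa3 at 10.8, 20.7 and 17.7 CPM. Since the gate used these genes, their presence at both stages follows from it and is no check of the label. Of the mesenchymal cells free of Sox10, 37.6% were Hox-positive in the E9.5 library and 84.6% and 77.5% in the E10.5 libraries, from which the first arch had been left out. Close to the thresholds, 111, 143 and 156 members had exactly 3 UMIs of the mesenchymal genes, and 186, 244 and 200 otherwise equal cells had 2. Exactly 1 Hox UMI was found in 17.97%, 13.5% and 21.4% of the members, and 2530, 527 and 1608 mesenchymal cells without Sox10 had none.

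The question of the comparison was how this mesenchyme changed within 1 day of development. UMI counts were summed over the members of each library and tested with edgeR's quasi-likelihood F test, log2 fold changes being E10.5 over E9.5 with Benjamini-Hochberg adjustment over 16063 genes. Because E9.5 had 1 library, the spread came from the 2 E10.5 libraries, and the E9.5 library was assumed to vary like them. Of the genes tested, 1438 were higher at E10.5 (8.95%) and 1478 were lower (9.2%), together 18.2%, and 1172 and 813 of them changed more than 2-fold. The median log2 fold change over all genes was 0.083, against which the medians of the gene lists below are to be read. In an edgeR fit that added the 3 Tbx1 null libraries to estimate the spread, the same contrast called 119 genes higher (0.726%) and 104 lower (0.635%), together 1.36%. All 223 of them were also called by the 3-library fit. Both fits take the change from the same 3 control libraries, so a kept sign says nothing of stability, and the null libraries bear on the spread. Unlike the control pair, the null E10.5 libraries differed in kit version (3 and 3.1). Their shares of members with a group 3 Hox UMI were 64.7% and 81.2%. The part of these differences in the spread was not tested. Scaled by total UMIs alone, without the trimmed mean of M-values (TMM), 84.7% of calls were rises against 49.3%, with the median over all genes moved by 0.389. Of all genes 24.4% were then higher and 4.42% lower, against which list counts under that scaling are to be read. The DESeq2 test called 1298 genes higher (9.35%) and 1858 lower (13.4%) of 13883 with an adjusted p. Values in CPM below are TMM-scaled and given in the order E9.5, E10.5 replicate 1 and E10.5 replicate 2, and an adjusted p is from the 3-library edgeR fit unless stated otherwise.

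Under the rule that named genes by size, which leaves out Xist, the largest rise among genes reaching 20 CPM was that of Emx2. This homeobox gene of forebrain and urogenital tissue had 1 UMI at E9.5, 0.0292 CPM, and reached 29.9 and 48.02 CPM. Its ratio of E10.5 to E9.5 was 1333, with a 95% counting interval from 239 to 52640. Hmx1, a homeobox gene of the craniofacial mesenchyme and cranial ganglia, rose from 0.351 to 122 and 102 CPM (log2 fold change 8.31 ± 0.36 SE, adjusted p = 0.000178). The zinc finger repressors Bcl11a and Bcl11b rose together, Bcl11a from 0.321 to 69.7 and 76.1 CPM and Bcl11b from 0.321 to 36.9 and 41.5 CPM (log2 fold changes 7.82 and 6.92). Gsc, the homeobox gene goosecoid, needed for jaw and ear elements, stood at 1.08, 45.7 and 44.6 CPM (log2 fold change 5.38). For all of these the E9.5 library lay below both E10.5 libraries, as the rule that named genes by size required. Others of the 15 largest rises among genes reaching 20 CPM were 3110099E03Rik, Pcdh10, a protocadherin, Bdnf, a neurotrophin, Igf1, the insulin-like growth factor, Scx, the tendon factor scleraxis, Shox2, a homeobox gene of limb and palate, Nfib, a nuclear factor, Tle5, a Groucho-family corepressor, Pdgfc, a platelet-derived growth factor, and Mir100hg, a host transcript of microRNAs. Their log2 fold changes ran from 3.37 for Mir100hg to 7.87 for 3110099E03Rik. Pcdh10 and Mir100hg were the 2 of the 15 not called in the 6-library fit.

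**Figure D1:**
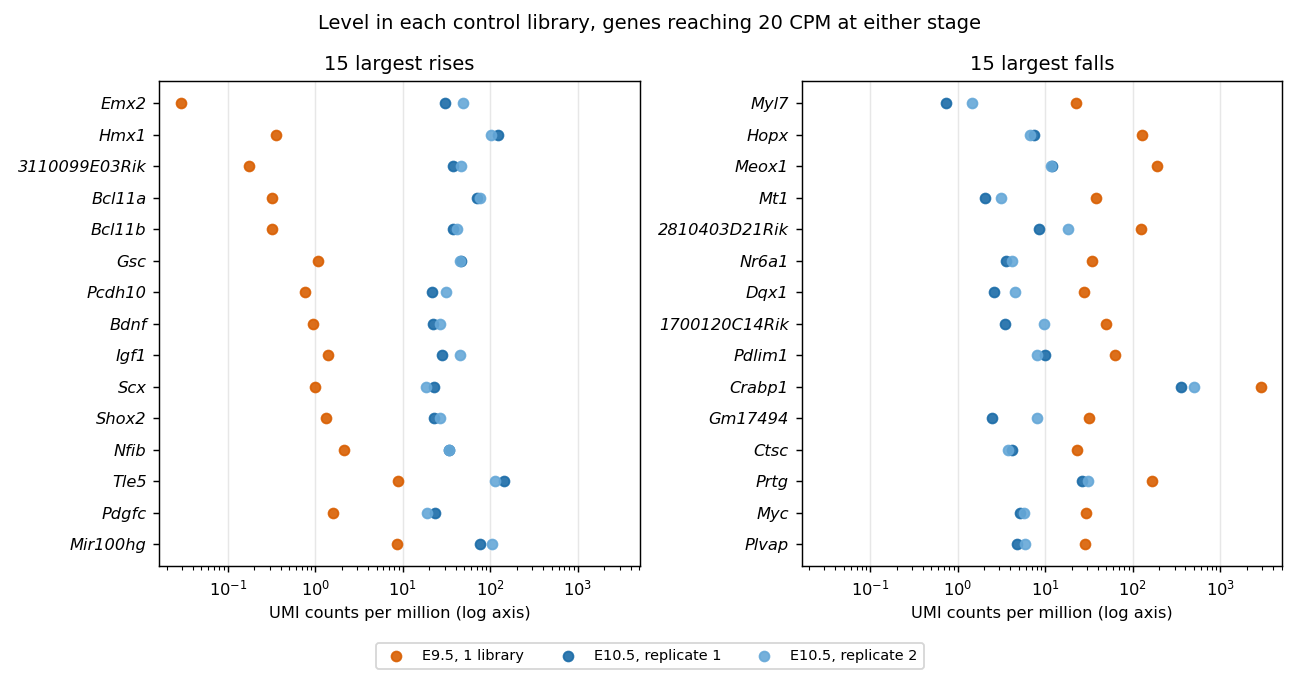
TMM-scaled CPM on a log axis of the 15 genes with the largest rises and the 15 with the largest falls among called genes reaching 20 CPM at either stage; each point is 1 library. By the rule that chose the genes, the E9.5 point lies outside the pair of E10.5 points in each, from Emx2 at 0.0292 CPM to Crabp1 at 2884 CPM.

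Meox1, a homeobox gene of mesoderm and early arch mesenchyme, dropped from 188 to 11.8 and 11.5 CPM (log2 fold change -4.01 ± 0.19 SE, adjusted p = 0.000178). Hopx, a homeodomain-only factor that does not bind DNA, dropped from 128 to 7.39 and 6.61 CPM (log2 fold change -4.19). Crabp1, a retinoic acid binding protein abundant in early crest, was at E9.5 the most abundant of the 15 largest falls among genes reaching 20 CPM and went from 2884 to 358 and 505 CPM (log2 fold change -2.74, adjusted p = 0.00134). For all 3 genes both E10.5 libraries lay below the E9.5 library, as the rule that named them required. Nr6a1, a nuclear receptor of early embryos (log2 fold change -3.16), Prtg, the immunoglobulin-family receptor protogenin (-2.54), Myc (-2.43) and Mt1, a metallothionein (-3.90), were further members of the list, as were 2810403D21Rik, Dqx1, 1700120C14Rik, Pdlim1, Gm17494, Ctsc and Plvap, with log2 fold changes between -3.25 and -2.43. Of the 15 falls, Myc, Plvap, Gm17494 and 1700120C14Rik were not called in the 6-library fit, and the latter pair was not called by DESeq2 either. Myl7, the atrial myosin light chain, stood at 22.6, 0.736 and 1.46 CPM, but after thinning of each cell to 5000 UMIs 0.921% of E9.5 members had a UMI of it (exact binomial 95% interval 0.504 to 1.54%). This was no more than the 1.94% in Sox2-positive cells of the same library, which stand for neural cells and for the background. The level of Myl7 in those cells, scaled by total UMIs, was 3.39 CPM and so below that of the members. In members with at least 3 Hox UMIs the log2 fold change of Myl7 was -0.57 (edgeR adjusted p = 0.441) against -4.34 in all members.

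Among genes reaching 200 CPM, the largest rises were those of Gm42418, of Ldhb, a lactate dehydrogenase subunit (49.6 to 310.0 and 249 CPM), and of H19, Lgals1, Jund, Sox11, Gpc3, Sox4, Ptn and Top2b, between 1.10 and 1.84 on the log2 scale. Sox11 (392, 825 and 1028 CPM) and Sox4 (209, 507 and 469.8 CPM) are SoxC factors that keep progenitors alive, and both E10.5 libraries exceeded E9.5, as the rule required. Of these 10 rises Ldhb was the 1 called in the 6-library fit. The largest falls in this range included Crabp1, Gm10076, Polr2l, a small subunit of RNA polymerase II, Bola2, Rpl38 and Rpl39 of the ribosome, Srm, the spermidine synthase, Ldha, the other lactate dehydrogenase subunit, and Cox17, a copper chaperone. Ldha fell from 3059 to 768 and 826 CPM (log2 fold change -1.94 ± 0.17 SE) while Ldhb rose. Of the 10 falls Crabp1, Bola2, Srm, Cox17 and Rpl39 were called in the 6-library fit. In the Tbx1 null cells Gm10076 read 1553, 803 and 2018 CPM and Polr2l 114, 55.3 and 133 CPM. For both genes null E10.5 replicate 2 thus lay above null E9.5, while the other falls named here were lower in both null E10.5 libraries. Sox2-positive cells of the control libraries, scaled by total UMIs, fell alike for Rpl38 (3778, 1128 and 1504 CPM) and Gm10076 (2702, 710 and 434 CPM). Polr2l, Bola2, Cox17, Rpl39 and Ldha (2619, 1283 and 929 CPM) were lower there as well. Crabp1 (3306, 1594 and 3033 CPM) and Srm (143, 113 and 104 CPM) changed less there. Ldhb rose there too (76.7, 240 and 286 CPM). So did Gm42418, H19, Jund, Top2b, Sox11 (392, 1220 and 1328 CPM) and Sox4 (157, 434 and 459 CPM). Gpc3 (101, 81.7 and 65.7 CPM) and Ptn (1206, 1262 and 1070 CPM) did not, and Lgals1 was higher in E10.5 replicate 2 only. Prtg (199, 40.7 and 51.5 CPM) and Nr6a1 (39.6, 6.50 and 9.24 CPM), named above, were also lower there. Ribosomal protein genes have near-identical processed copies in the genome, and their counts are uncertain for that reason. Of 77 ribosomal protein genes tested, 27 were lower and 0 higher, with a median of -0.55 against 0.083 over all genes.

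Shares of members with a UMI moved in the same way in the thinned cells. Emx2 was found in 0 of 1520 E9.5 cells, which allows a share of up to 0.197% by the rule of 3 counts of the total (exact binomial 95% upper limit 0.242%), and in 11.2% and 16.2% of the E10.5 cells, against 0.126% and 0.351% of Sox2-positive cells of the same libraries. Bcl11a was found in 0.197% of members at E9.5 (exact binomial 95% interval 0.0407 to 0.576%) and in 31.1% and 30.8% at E10.5, but Sox2-positive cells showed it in 0.430%, 33.3% and 27.02%, so a like rise was seen outside the mesenchyme. Meox1 was found in 33.8% of E9.5 members (31.4 to 36.2%) and in 5.84% and 5.39% at E10.5, against at most 0.645% of Sox2-positive cells. Col3a1, a fibrillar collagen, went from 11.2% to 53.3% and 55.7% with at most 2.28% in those cells. The Sox2-positive cells were members of no gate, with 0 UMIs of Twist1, Prrx1 and Prrx2, at least 3 of Sox2 and a median of 16353, 16580 and 11293 UMIs.

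The called Hox genes of groups 4 to 6, TALE cofactors and Dlx genes were all higher at E10.5, while the other members of these lists were not called. Of 9 tested Hox genes of groups 4 to 6, which pattern axial levels caudal to the third arch, 6 were higher and 0 lower, with a median log2 fold change of 2.55, or 2.43 with Hoxc6, which had no UMI at E9.5, set at its bound against 3 UMIs. Hoxa5 stood at 1.08, 8.97 and 5.68 CPM (log2 fold change 2.76), and Hoxa4, Hoxb5 and Hoxc5 gave 2.43, 2.55 and 4.16. None of the 9 was called in the 6-library fit. The E9.5 tissue was listed to arch 3 and the E10.5 tissue to arch 6, so these rises could not be told apart from dissection. These genes were low in absolute terms, their summed level being 44.9, 104 and 76.6 CPM. Of 9 TALE cofactors, the homeodomain partners of Hox proteins, 3 were higher and 0 lower, among them Meis1 (52.4, 114 and 125 CPM) and Pknox1 (log2 fold change 0.92). Of 6 Dlx genes, which pattern the arches from proximal to distal, Dlx3 (5.14, 21.8 and 23.8 CPM) and Dlx4 (log2 fold change 2.38) were higher, and the median of that list was 0.013. In the Tbx1 null cells these last genes had log2 fold changes of -1.10 and -1.72.

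Among 19 arch patterning factors 12 rose and 1, Meox1, fell, with a median of 0.99. Beside Emx2 and Gsc, Tshz1, a teashirt factor of ear and palate, rose from 17.4 to 74.3 and 73.9 CPM (log2 fold change 2.09 ± 0.21 SE, adjusted p = 0.00216). Osr1, an odd-skipped factor of connective tissue, stood at 0.321, 12.4 and 11.1 CPM. Hand2, needed in distal arches and outflow tract, rose from 37.1 to 75.03 and 85.5 CPM (log2 fold change 1.11), and Pou3f3, Six2, Eya1, Tshz2 and Barx1 rose by 1.56, 1.43, 0.96, 0.99 and 0.94 on the log2 scale. In the 6-library fit 3 of the list were higher and 1 lower. Forkhead factors of mesenchyme followed, 6 of 10 higher and 1 lower, with a median of 1.97 and 4 higher in the 6-library fit. Foxp1 read 17.4, 96.8 and 114 CPM and Foxp2 20.95, 68.7 and 89.2 CPM. Foxd1, Foxc2, Foxf1 and Foxf2 rose by 2.46, 2.19, 2.02 and 1.88, whereas Foxd2 fell by 0.81 on the log2 scale, a change that was not a call with total UMI scaling. Of 5 tested genes of first-arch mesenchyme Lhx6 and Lhx8 were among the 4 higher, with Lhx8 at 5.79, 17.5 and 14.2 CPM, and Alx1 was lower (20.8, 9.61 and 11.7 CPM), though not with total UMI scaling.

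Of 9 factors of heart and outflow tract 4 were higher and 1 lower. Isl1, a LIM homeobox gene, stood at 3.68, 14.1 and 13.7 CPM (log2 fold change 1.92 ± 0.25 SE, adjusted p = 0.00465). Gata3 (4.62, 12.1 and 11.5 CPM), Gata6 (log2 fold change 2.55) and Tbx2, a T-box repressor (1.20), also rose. Mef2c, a MADS-box factor of muscle and crest, went the other way, from 76.2 to 18.4 and 22.7 CPM (log2 fold change -1.89). It was the only 1 of the 9 genes of this list called in the 6-library fit. Of 16 smooth muscle genes 3 were higher and 0 lower, together near the 18.2% of all genes called in either direction. With total UMI scaling 8 were higher and 0 lower. Rgs5, a pericyte gene, was the most abundant of the 3 at 2.25, 19.3 and 14.8 CPM. Acta2, smooth muscle actin, read 17.6, 49.8 and 24.7 CPM (adjusted p = 0.0983), and Tagln, transgelin, 46.1, 80.02 and 64.3 CPM (adjusted p = 0.0800).

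Among 12 neural crest specifiers 5 fell and 1 rose. With total UMI scaling 4 fell and 3 rose, and with doublets removed 8 fell and 2 rose. The gate's Sox10 step kept 4055 of 5564 mesenchymal cells at E9.5 and 3419 of 3464 and 7136 of 7308 at E10.5. The part of this unequal step in the falls was not tested. Snai1, a zinc finger gene of epithelial-mesenchymal transition, fell from 72.5 to 28.1 and 24.4 CPM, and Tfap2a, an AP-2 factor of early crest, from 32.1 to 8.21 and 9.93 CPM (log2 fold changes -1.47 and -1.82). Tfap2b, Sox8 and the low Foxd3 fell by 1.14, 1.03 and 4.37 on the log2 scale. Twist2, the paralog of Twist1, was the 1 that rose, from 10.6 to 95.01 and 94.97 CPM (log2 fold change 3.16 ± 0.22 SE, adjusted p = 0.000880). It was found in 3.62%, 37.04% and 37.6% of thinned members in the order of the libraries, and in at most 0.568% of Sox2-positive cells. Twist1 was part of the gate, so its level is not set beside that of Twist2.

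In the FGF and BMP pathways the called ligands and receptors were all higher at E10.5, 3 of 8 and 5 of 10 genes, while 4 of 10 and 3 of 13 response genes were lower. Of 10 FGF response genes, feedback regulators and effectors induced by the pathway, Spry1 (25.9, 9.66 and 7.99 CPM), Spry2 (27.2, 8.63 and 8.27 CPM), Spry4 and Etv5 were lower and 0 were higher. With total UMI scaling 2 were lower and 1 higher, and in the 6-library fit 0. The receptors Fgfr1 (37.4, 76.6 and 74.6 CPM) and Fgfr2 (log2 fold change 0.91) and the ligand Fgf10 (2.27) rose and 0 fell, and 0 of these were called in the 6-library fit. Of 13 BMP response genes Id1, an inhibitor of helix-loop-helix factors, fell from 935 to 373 and 278 CPM, and Msx2 and Dkk1 fell by 1.79 and 0.87 on the log2 scale. Smad7, an inhibitory Smad, was the 1 gene that rose (0.83), and the median of the list, -0.15, turned to 0.24 with total UMI scaling. The BMP response list then had 2 higher and 2 lower, and in the 6-library fit 0 of either. The ligand Bmp4 rose from 4.79 to 21.7 and 26.6 CPM (log2 fold change 2.33 ± 0.27 SE, adjusted p = 0.00312), and Bmp5, Bmpr1a, Bmpr1b and Bmpr2 rose by 1.87, 0.81, 1.80 and 1.24, so that 5 of 10 ligands and receptors were higher and 0 lower.

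Hedgehog genes rose in 6 of 10 cases and fell in 0. Gas1, a co-receptor, stood at 82.5, 193 and 199 CPM, and Ptch1, receptor and target at once, at 29.7, 61.6 and 65.7 CPM. The targets Gli1 and Hhip rose by 1.93 and 1.49 and the effector Gli2 by 0.97 on the log2 scale. In the TGF-beta list 5 of 9 rose and 0 fell. All 3 ligands were among them, Tgfb2 from 4.53 to 24.5 and 26.01 CPM (log2 fold change 2.48), with Tgfb1 (1.65), Tgfb3 (1.54) and the receptors Tgfbr2 (1.19) and Tgfbr3 (1.49). Neither list had a call in the 6-library fit. Of 22 Wnt genes 6 were higher and 2 lower, and with total UMI scaling 14 were higher and 1 lower. Dkk2, an extracellular Wnt modulator, rose from 1.49 to 12.6 and 12.4 CPM, Frzb, a secreted antagonist, by 1.70, the receptor Fzd1 by 1.79, the ligand Wnt5b by 1.61, the target Axin2 by 0.84 and the repressor Tcf7l1 by 0.80 on the log2 scale. Sfrp2, another secreted antagonist, fell by 0.98 and the target Sp5 by 1.68.

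Genes of cell contact and migration were mostly higher where called. Of 19 guidance genes 10 were higher and 0 lower, with a median of 0.94. Epha3, an ephrin receptor, stood at 9.73, 50.2 and 48.1 CPM (log2 fold change 2.34 ± 0.22 SE, adjusted p = 0.00188), and Ephb3, Efnb2, Robo1, Robo2 and Slit3 rose by 1.66, 0.94, 1.54, 1.66 and 1.33. Cxcl12, a chemokine that attracts crest cells, rose from 25.5 to 121 and 144 CPM, while Kitl, the ligand of Kit, fell from 55.9 to 14.4 and 24.1 CPM and Kit rose (1.47). Of 12 semaphorin genes Sema3a (7.39, 26.98 and 35.6 CPM) and Sema3f (1.69) rose and the receptor Plxna4 fell (-1.68). Edn3, an endothelin, was the 1 of 6 endothelin genes that rose (2.65), and of 6 PDGF genes the receptor Pdgfra (0.93) and the ligand Pdgfc (3.72) rose and 0 fell. The shares called in the semaphorin and endothelin lists were not far from the 18.2% of all genes called in either direction. Of 17 tested retinoic acid genes 2 were higher, 2 lower and 13 not called, shares near those of all genes, and with total UMI scaling 5 were higher and 2 lower. Cyp26a1, which degrades retinoic acid, rose from 0.555 to 9.74 and 14.6 CPM and Stra6, a retinol transporter, by 2.94, whereas Crabp1 and the synthetic enzyme Aldh1a3 (-1.99) fell. Of 9 Notch genes 5 were not called, with Notch1 (1.14) and Notch3 (0.86) higher and the targets Hes1 (-0.85) and Hey2 (-1.34) lower. The medians of the retinoic acid and Notch lists changed sign with total UMI scaling, and 2 Notch genes were then higher and 0 lower.

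Extracellular matrix genes were mostly higher where called. Of 27 collagens 16 were higher and 0 lower, with a median of 1.00, and 4 were higher in the 6-library fit. Col3a1 rose from 35.7 to 191 and 181 CPM (log2 fold change 2.38 ± 0.21 SE, adjusted p = 0.00150), Col1a1, of bone and skin, from 3.95 to 41.2 and 30.05 CPM, and Col9a1, of cartilage, from 38.7 to 147 and 140.1 CPM. The E9.5 library was lowest for each. Col12a1, Col6a3, Col25a1 and Col2a1 rose by 4.91, 4.01, 2.52 and 0.78. Of 31 other matrix genes 16 were higher and 3 lower. Fn1, fibronectin, Vcan, the proteoglycan versican, Mfap4, a microfibril protein, Fbln5 and Thbs1 rose by 1.07, 1.57, 2.04, 1.60 and 2.12, while Hapln1, which links hyaluronan to proteoglycans, fell from 19.7 to 2.56 and 2.57 CPM and Lum and Bgn by 1.16 and 0.76 on the log2 scale. With total UMI scaling 21 of these genes were higher and 1 lower. Scx, at 0.994, 22.7 and 18.4 CPM, and Pax9, at 1.75, 8.17 and 10.2 CPM, were among 3 of 12 skeletogenic genes that rose, and 0 fell. Of 6 tested adhesion genes, cadherins and Ncam1, Cdh3 (2.78) and Ncam1 (0.83) rose and 0 fell. With doublets removed 1 was higher and 1 lower.

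**Figure D2:**
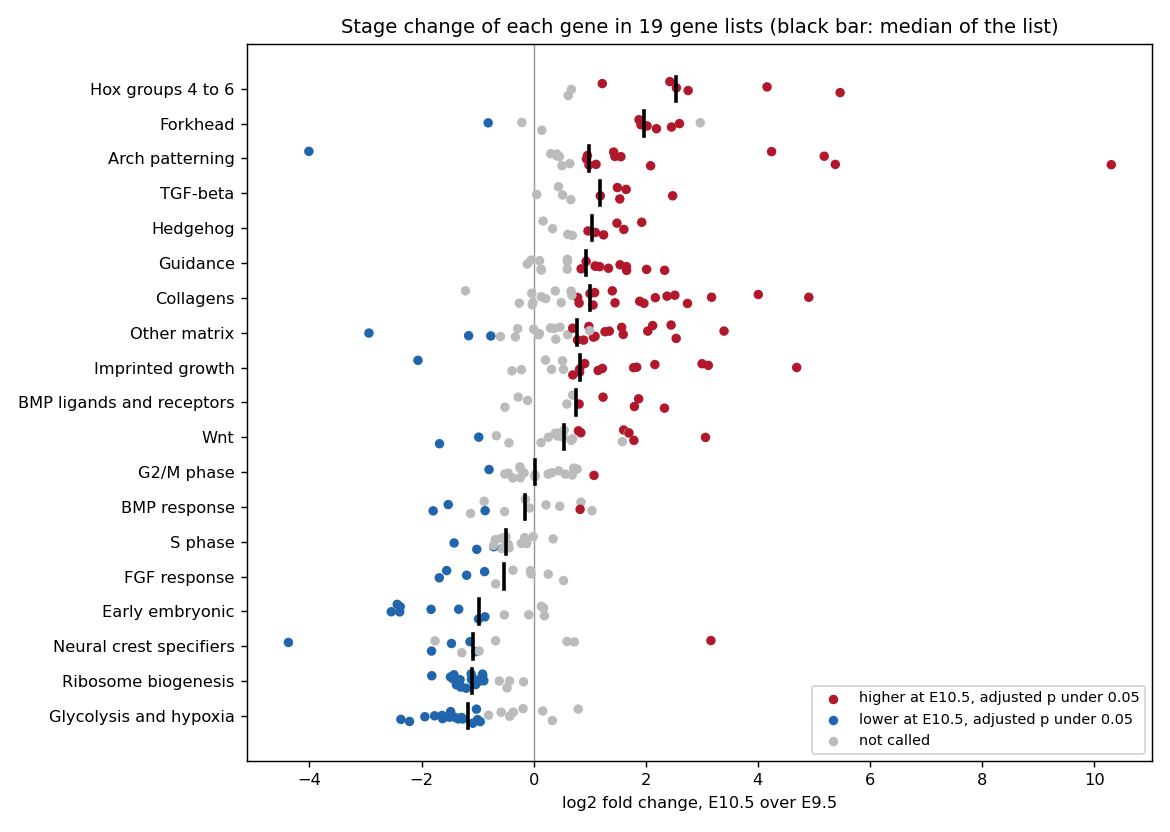
Log2 fold change of each tested gene in 19 lists (points) with the median of the list (black bars), red where higher and blue where lower at E10.5 with an adjusted p under 0.05 and grey where not called; genes without a UMI at E9.5 are not drawn. Medians ran from 2.55 for Hox groups 4 to 6 to -1.18 for glycolysis and hypoxia.

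Imprinted and insulin-like growth factor genes, which set the growth of embryo and placenta, rose in 12 of 19 cases and fell in 1. Igf2 stood at 32.9, 140.0 and 154 CPM, its neighbour H19 at 83.7, 247 and 351 CPM and Igf1 at 1.40, 27.8 and 44.8 CPM. Each was higher in both E10.5 libraries. Plagl1, an imprinted zinc finger gene, rose from 4.97 to 39.9 and 46.2 CPM, and Dlk1, Meg3, Cdkn1c, Peg3 and the receptor Igf1r rose by 1.15, 0.82, 0.82, 0.91 and 0.70. Binding proteins of these factors diverged. Igfbp5 rose from 12.1 to 86.8 and 107 CPM and Igfbp2 by 1.78, while Igfbp3 fell from 20.2 to 4.80 and 4.84 CPM (log2 fold change -2.06). In the 6-library fit 3 were higher and 1 lower.

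Of 13 genes of early embryonic cells 8 were lower, 0 higher and 5 not called (Lin28b, Hmga2 and Igf2bp1 to 3), with a median of -0.98. Lin28a, an RNA-binding protein that blocks maturation of let-7 microRNAs, fell from 56.4 to 7.74 and 13.7 CPM (log2 fold change -2.39 ± 0.32 SE, adjusted p = 0.00501), and Mycn from 133 to 27.8 and 23.3 CPM. Trim71, Sall4, Hmga1 and Dnmt3b fell by 0.98, 1.83, 1.34 and 0.87 on the log2 scale. In thinned cells Lin28a was found in 20.7%, 4.01% and 6.33% of the members, and its share in Sox2-positive cells went from 16.99% to 2.46% and 5.61%. Of the 13, Prtg was the 1 called in the 6-library fit.

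Mir100hg, among the largest rises, is a host transcript of a let-7 microRNA, so its mature products are shown with those of the related host Mir99ahg, which was added after its values were seen. Mir100hg lies at chr9:41327077-41716994 on the plus strand and Mir99ahg at chr16:77236317-77773427 on the plus strand of GRCm38. Mir100hg rose from 8.62 to 75.3 and 103 CPM (log2 fold change 3.37 ± 0.29 SE, adjusted p = 0.00145, and 0.0541 in the 6-library edgeR fit) and was found in 3.29%, 32.6% and 41.7% of thinned members against 12.7%, 28.5% and 23.7% of Sox2-positive cells. Mir99ahg rose from 16.2 to 51.4 and 45.6 CPM (log2 fold change 1.58). Mature microRNAs themselves were not measured. The sequences are from RefSeq (GRCm38.p6), 5′ to 3′, with the seed, bases 2 to 8, in capitals, and each hairpin lies within its host. Both hosts carry 1 member of each of 3 seed families, and miR-125b-5p is the same from either.
mmu-miR-100-5p (Mir100, chr9:41531437-41531458, plus strand, in Mir100hg): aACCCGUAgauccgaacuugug
mmu-let-7a-5p (Mirlet7a-2, chr9:41536732-41536753, plus strand, in Mir100hg): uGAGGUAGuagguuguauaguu
mmu-miR-125b-5p (Mir125b-1, chr9:41581940-41581961, plus strand, in Mir100hg): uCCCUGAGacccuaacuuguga
mmu-miR-99a-5p (Mir99a, chr16:77598940-77598961, plus strand, in Mir99ahg): aACCCGUAgauccgaucuugug
mmu-let-7c-5p (Mirlet7c-1, chr16:77599672-77599693, plus strand, in Mir99ahg): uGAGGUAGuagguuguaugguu
mmu-miR-125b-5p (Mir125b-2, chr16:77646279-77646300, plus strand, in Mir99ahg): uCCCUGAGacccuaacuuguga

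Targets of let-7 are recognised through a match to its seed in the 3′ untranslated region. The 7-base match CTACCTC occurred in the 3′ untranslated regions of 9.18% of all tested genes with such a region, in 9.61% of those higher at E10.5 and in 7.30% of those lower. The regions themselves differed in length, with a median of 1462 bases in genes that were higher, 555 in those lower and 975 in all, and matches per kilobase were 0.0566, 0.0828 and 0.0719. Lin28a held 2 matches, Trim71 4, Prtg 2, Sall4 1 and Nr6a1 8, while Mycn, Myc, Hmga1 and Dnmt3b held 0. Genes with matches were not all lower: Lin28b, Hmga2 and Igf2bp1, with 4 each, were not called. The first match in Lin28a and in Trim71, both lower at E10.5, is shown with its surrounding bases (GRCm38), the match in capitals.
Lin28a (chr4:134005180-134005209, minus strand): acagcctgttgaaCTACCTCatttttgccg
Trim71 (chr9:114512463-114512492, minus strand): cattgcctaagtcCTACCTCagcttaaatt

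Of 23 tested genes of ribosome biogenesis 19 were lower and 0 higher, with a median of -1.09, and 14 were lower with total UMI scaling. Npm1, a nucleolar chaperone, fell from 8983 to 4095 and 4332 CPM, Ncl, nucleolin, from 2931 to 1485 and 1629 CPM, and Nop2, an rRNA methyltransferase, from 61.8 to 24.5 and 25.6 CPM (log2 fold change -1.30 ± 0.19 SE, adjusted p = 0.00630). The E9.5 library was highest for all 3. Ppan, Rrp9, Nhp2, Nop58 and Fbl fell by 1.82, 1.48, 1.38, 1.30 and 1.09 on the log2 scale, and Ppan and Rrp9 were the 2 called in the 6-library fit. Myc and Mycn, whose proteins bind the E-box CACGTG, were lower in the summed members too, as given above. Their part in the falls of this list was not tested. Promoters of 250 bases before and 50 after the start held CACGTG, a palindrome and so the same on both strands, in 10.1% of 11893 tested genes with a RefSeq promoter, in 14.9% of those lower and 6.76% of those higher. Among the ribosome biogenesis genes that fell, 3 of 16 held it.

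Of 24 glycolysis and hypoxia genes 16 were lower and 0 higher, with a median of -1.18. With total UMI scaling 13 were lower and 2 higher. Ldha has been given above. Pgk1, phosphoglycerate kinase, fell from 1301 to 428 and 410.1 CPM and Hk2, hexokinase 2, from 85.2 to 15.2 and 21.5 CPM. Slc16a3, a lactate exporter, fell from 159 to 30.7 and 30.8 CPM (log2 fold change -2.37 ± 0.18 SE, adjusted p = 0.00101), and Slc2a1, the glucose transporter, Aldoa, Eno1 and Pkm by 1.77, 1.40, 1.48 and 1.26 on the log2 scale. Hk2 and Slc16a3 were the 2 called in the 6-library fit. In thinned cells Slc16a3 was found in 48.4%, 14.1% and 14.3% of the members and in 53.8%, 26.7% and 17.9% of Sox2-positive cells. The core of the hypoxia response element, ACGTG, on either strand, was in the promoters of 25.3% of all tested genes and of 12 of the 23 genes of this list with a RefSeq promoter, 52.2%, those that fell holding it in 8 of 16 cases, and every CACGTG also contains it. The promoters of Nop2 (chr6:125131633-125131932, plus strand, with CACGTG in capitals) and of Slc16a3 (chr11:120948817-120949116, plus strand, with ACGTG in capitals) are shown as examples from each list, from RefSeq on GRCm38.p6. A match is a description of the letters and not of binding.
Nop2 promoter: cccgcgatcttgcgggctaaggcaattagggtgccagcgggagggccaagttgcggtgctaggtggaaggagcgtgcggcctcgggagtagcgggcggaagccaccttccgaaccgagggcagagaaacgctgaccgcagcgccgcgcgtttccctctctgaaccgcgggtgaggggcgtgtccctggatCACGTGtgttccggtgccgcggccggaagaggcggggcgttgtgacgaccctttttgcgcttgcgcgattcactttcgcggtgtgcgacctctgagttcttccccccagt
Slc16a3 promoter: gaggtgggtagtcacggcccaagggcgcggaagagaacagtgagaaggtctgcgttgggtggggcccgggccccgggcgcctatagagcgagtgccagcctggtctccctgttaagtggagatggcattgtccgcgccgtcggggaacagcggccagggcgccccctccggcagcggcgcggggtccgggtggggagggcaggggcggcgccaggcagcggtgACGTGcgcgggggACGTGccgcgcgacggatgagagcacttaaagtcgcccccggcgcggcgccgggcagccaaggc

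Proliferation genes were called at a share near the 18.2% of all genes or below it. Of 18 S-phase genes Rrm2, Cdc6 and Ung were lower, Cdc6, which licenses replication, going from 54.2 to 25.7 and 27.9 CPM, and 0 were higher. Of 18 G2/M genes Kif11 was higher (1.08) and Cdc20 lower (-0.80), with a median of 0.023. With total UMI scaling 8 of the G2/M genes were higher and 0 lower. Of 12 inhibitors of the cycle 3 were higher and 0 lower, Cdkn1b (1.01) and the antiproliferative Btg1 (0.94) among them. Of 13 genes induced by cell dissociation 3 were higher and 4 lower (3 and 3 with total UMI scaling), with Jun (1.13) and Fosb (3.53) higher beside Jund and Junb (-2.23), Ier2 (-0.69) and Hspa1a (-2.81) among those lower.

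Markers of other cell types moved with stage as well. Of 6 neuron markers 5 were higher, Stmn2 standing at 4.76, 38.7 and 21.7 CPM and Dcx rising by 4.42, and their summed level was 40.7, 176 and 92.6 CPM, but 1 was higher without the cells scored as doublets. The 6 neural progenitor markers, Sox2 among them, summed to 135, 99.1 and 18.5 CPM with 0 called, so that the E10.5 libraries differed more from each other than replicate 1 did from E9.5. Sox2 itself was found in 14.01%, 8.51% and 2.22% of thinned members in the order of the libraries. Of 3 tested markers of glia and migrating crest 2 were lower, Erbb3 (-2.80) among them, and the 3 summed to 128, 72.9 and 18.5 CPM. Of 6 cardiac muscle markers 5 were lower, with sums of 38.1, 1.96 and 2.71 CPM, Tnnt2 at 7.39, 0.0934 and 0.0681 CPM. In members with at least 3 Hox UMIs Tnnt2 and Myl7 were not called (log2 fold changes -1.92 and -0.57). Mesoderm and muscle markers summed to 2.16, 9.98 and 7.13 CPM, with 2 of 4 tested higher and 0 lower. Endothelial markers summed to 1.99, 3.28 and 3.08 CPM, blood markers to at most 0.826 CPM, and epithelial markers to at most 37.5 CPM. The part of these cells in the results was not tested.

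Members were divided into cells with a UMI of Hoxa3, Hoxb3 or Hoxd3, 41.8%, 46.3% and 37.0% of the members, and cells without, and the stage change was compared between the classes with the library as a block. This edgeR fit had 6 sums from 3 libraries and 1 residual degree of freedom, so its adjusted p-values rest on the spread shared between genes. The stage change differed for 966 of 15412 genes (6.27%), more positive in the Hox group 3 cells for 678 and more negative for 288, but for 111 genes after thinning to 5000 UMIs. Among the named genes the largest differences were in the cardiac genes Myl7 (4.98) and Tnnt2 (4.97) and the smooth muscle genes Acta2 and Tagln. Myl7 read 38.3, 0.725 and 1.45 CPM in cells without a Hox group 3 UMI and 1.27, 0.759 and 1.49 CPM in cells with one. In Hox group 3 cells Acta2 rose from 1.74 to 61.1 and 36.5 CPM, and in the other cells it read 29.2, 39.5 and 17.4 CPM, a difference of 4.95 ± 0.19 SE in log2 fold change. Over both classes 1.38%, 3.06% and 2.24% of the thinned members had a UMI of Acta2, against at most 0.175% of Sox2-positive cells, so that these levels rest on few cells. Tagln rose from 14.5 to 113 and 110 CPM in Hox group 3 cells and fell from 69.1 to 48.9 and 35.6 CPM in the others (difference 3.72). Rgs5, Tgfb2, Igf2, H19, Isl1 and Gata3 had more positive changes in Hox group 3 cells, by 2.46, 1.93, 1.46, 1.26, 1.51 and 1.71 on the log2 scale. Pax9, a paired-box gene of the pouches and arch skeleton, rose instead in cells without Hox group 3, from 0.762 to 13.1 and 13.5 CPM, against 3.01, 3.30 and 5.05 CPM in cells with it. Dlk1 rose in the same cells, from 40.2 to 184 and 134 CPM (difference -1.46). Markers of neural cells moved with this split as well. Of 6 neural progenitor markers 5 and of 6 neuron markers 4 had a more positive change in Hox group 3 cells, Sox2 with 54.3, 50.2 and 13.5 CPM there and 39.8, 6.57 and 2.03 CPM in the others. The Sox2-positive cells themselves held Hoxb3 at 28.3, 87.8 and 90.8 CPM, against 26.7, 30.3 and 27.3 CPM in the members. The part of neural cells in the class differences was not tested. Of 26 named genes with a difference of at least 1, 22 of the 23 that could be fitted after thinning kept its sign and 9 were called.

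**Figure D3:**
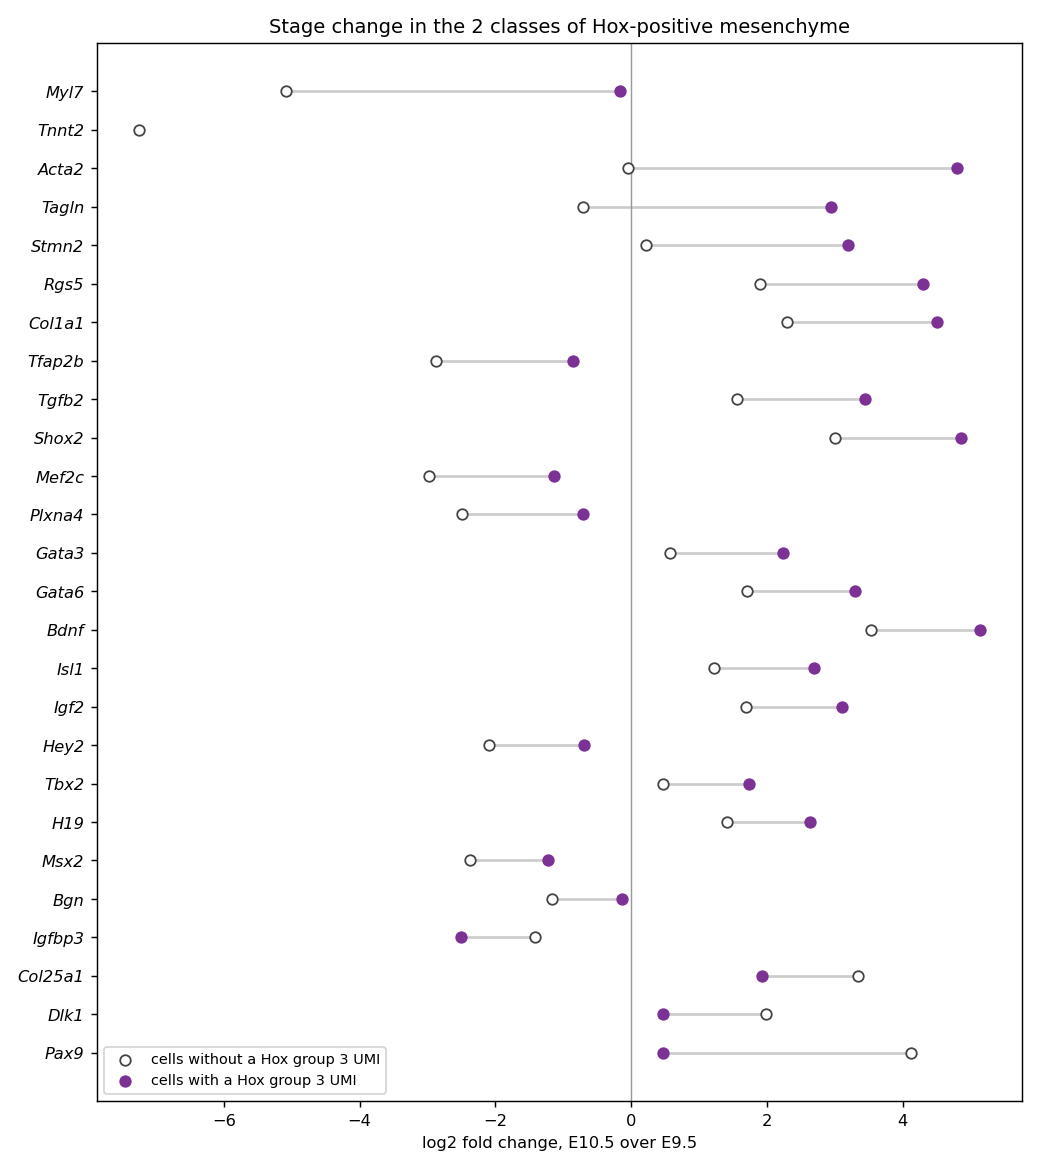
Log2 fold change, E10.5 over E9.5, of 26 named genes whose stage change differed by at least 1 between cells with (filled) and without (open) a Hox group 3 UMI, joined by a line; Tnnt2 was not tested in the cells with it. Acta2 lies at 4.81 and -0.04 and Pax9 at 0.47 and 4.12.

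The Tbx1 null libraries did not enter the choice of members and gave the same contrast, with 1 library at E9.5 and 2 at E10.5 and 6144 members. The E9.5 library and E10.5 replicate 1 were made with kit version 3 and E10.5 replicate 2 with version 3.1, and 40.99%, 64.7% and 81.2% of their members had a Hox group 3 UMI. Of the genes higher in controls, 1366 of 1425 with a value (95.9%) were also higher in these libraries, as were 1394 of 1459 (95.5%) lower, against 76.1% of all genes with the same sign. Called there by edgeR in the same direction were 173 and 63 genes, and in the opposite direction 2 and 0, where 1.37% of genes were called higher and 0.517% lower, together 1.88%. Emx2 read 0.0520, 0.344 and 0.479 CPM in the Tbx1 null cells, far below the controls at E10.5, and was not called there. Gsc had a log2 fold change of 2.72, Twist2 of 1.89, Col3a1 of 2.11, Igf1 of 4.84, Meox1 of -1.72, Crabp1 of -1.37, Prtg of -2.09 and Slc16a3 of -1.37. Of these Gsc, Twist2, Col3a1, Igf1 and Prtg were called within the null libraries. Dlx3, Dlx4 and Barx1 rose in controls and had negative values in the null cells, of -1.10, -1.72 and -1.23. A test of the difference between the genotypes in the 6-library edgeR fit called 1 gene of 16383 (0.0061%), Xist, with 491 at an unadjusted p under 0.05. The differences for Dlx3, Dlx4 and Barx1 were not called.

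**Figure D4:**
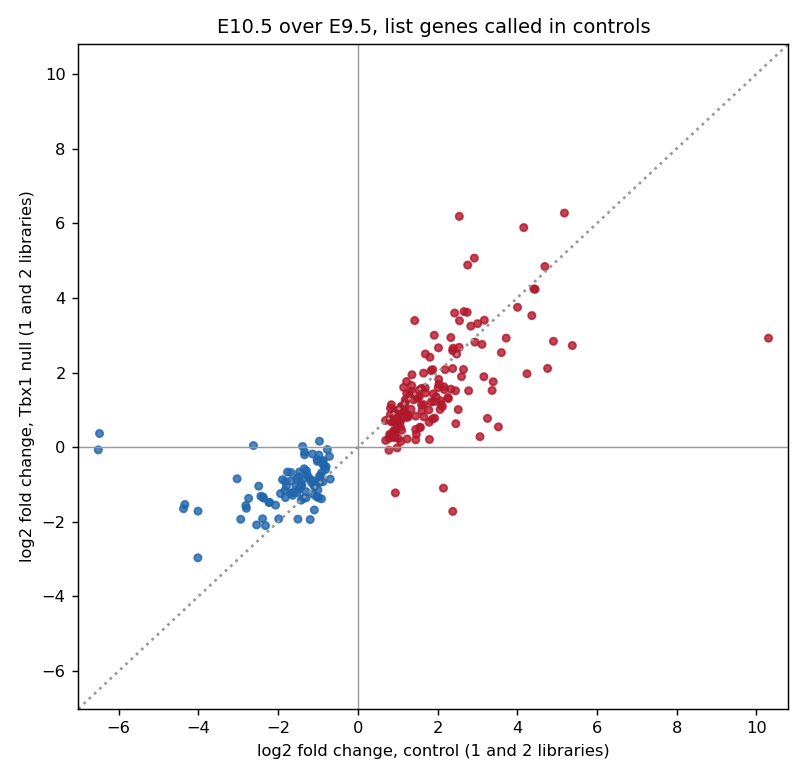
Log2 fold change, E10.5 over E9.5, of 238 list genes called in the controls (horizontal axis) and in the Tbx1 null libraries (vertical axis), genes without a UMI in a control library or in the null E9.5 library left out and the dotted line marking equal changes. Of these genes 229 lie on the same side of 0 in both and 9 on opposite sides.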

How the data were processed

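Single cells were profiled with 10x Chromium 3′ kits, and the authors deposited UMI counts per gene and barcode (32285 genes, mm10, Cell Ranger 6.0.1 per the labels), here used unnormalised. Depth per library and per member is given at the start of the report. UMIs count molecules, and all intervals given cover counting error only. Cells were gated as described, doublets were kept, and counts were summed per library. Sums were tested with edgeR 4.0.16 in R 4.3.3 (filterByExpr, TMM, glmQLFit and glmQLFTest, Benjamini-Hochberg adjusted p under 0.05), with DESeq2 1.42.0 as an alternative. An SE given here is the absolute log2 fold change divided by the square root of the F statistic, and edgeR did not report it. The 3-library fit had 1 residual degree of freedom and the 6-library fit 2. The plan wrote 5 libraries for the latter by mistake. Python steps used numpy 2.4.6, scipy 1.17.1, pandas 2.3.3, scanpy 1.11.5 (Scrublet doublet scores, 0.8% of barcodes per 1000 barcodes) and matplotlib 3.10.9. Thinning drew 5000 UMIs per cell, and Sox2-positive cells had at least 3 UMIs of Sox2 and none of the mesenchymal genes. On simulated counts in which 200 of 16031 genes changed 4-fold, the 3-library fit recovered 99.5% of them. These counts had a smaller spread between libraries (dispersion) than the 0.0398 that the fit estimated from the data. The changed genes were also drawn above a minimum count, so the 99.5% does not measure the power of the fit on the data.

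Genes named by size were the 15 largest rises and 15 largest falls among called genes reaching 20 CPM in the higher stage and the 10 of each reaching 200 CPM, leaving out genes of the gate, haemoglobins, Xist and Y-linked genes. For each of them the E9.5 library had to lie on the same side of both E10.5 libraries. Other named genes were members of fixed lists. A few genes and 1 sequence are not reported here. The members and lists were chosen with earlier results of these data known. The Tbx1 null libraries alone were added as an alternative after seeing the data. The E8.5 library, with 47 cells in the gate, was left out. Gene coordinates and 3′ untranslated regions are from GENCODE on GRCm38, and microRNA and promoter sequences from RefSeq on GRCm38.p6.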

Additional observations from a re-analysis of the deposited data

Results flagged for a closer look

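For 26 named genes the stage change differed between cells with and without a Hox group 3 UMI by at least 1 on the log2 scale, by the interaction term of the edgeR fit with the library as a block. The values that follow are the log2 fold change in cells with Hox group 3 minus that in cells without. Cardiac and smooth muscle genes led with Myl7 at 4.98, Tnnt2 at 4.97, Acta2 at 4.95, Tagln at 3.72 and Rgs5 at 2.46. Factors of outflow tract, limb and crest followed, with Tfap2b at 2.09, Shox2 at 1.90, Mef2c at 1.88, Gata3 at 1.71, Gata6 at 1.67, Isl1 at 1.51, Tbx2 at 1.33, Hey2 at 1.39 and Msx2 at 1.15. Signalling and guidance genes were Tgfb2 at 1.93, Plxna4 at 1.82 and Bdnf at 1.66. Growth and matrix genes were Igf2 at 1.46, H19 at 1.26, Col1a1 at 2.26 and Bgn at 1.09, and the neuronal Stmn2 stood at 3.12. Values were negative for Igfbp3 (-1.03), Col25a1 (-1.37), Dlk1 (-1.46) and Pax9 (-3.61). For Igfbp3 the difference was 0.39 after thinning to 5000 UMIs, and the adjusted p passed in 9 of the 23 genes that could be fitted there.

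Xist was the 1 gene whose stage change differed between controls and Tbx1 null libraries, by 12.81 on the log2 scale in the 6-library edgeR fit. It had 1 UMI in the control E9.5 library, so this value depends on the prior count and is no bound. Xist stood at 447, 468 and 651 CPM in the null libraries, and at 0.0292, 227 and 346 CPM in the controls. The sex of the embryos was not determined, so for Xist stage and genotype could not be told apart from sex. The ratio of E10.5 to E9.5 in the controls was 9802, with a 95% counting interval from 1759 to 387100.0.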

How the results depend on the processing

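The counts of 1438 higher and 1478 lower genes depended most on the estimate of the spread and on the scaling. They were 119 and 104 in the 6-library fit and ran from 136 to 423 and from 82 to 249 in that fit without 1 control E10.5 library. Without replicate 1 they were 423 and 249, and without replicate 2 they were 136 and 82. With total UMI scaling they were 3922 and 710, and without the filter on low counts 2558 were higher. The Tbx1 null libraries alone, an alternative chosen after seeing the data, gave 214 and 81. Both counts stayed within 1.5 times with DESeq2 size factors, the DESeq2 test (1298 and 1858), thinned cells, at least 3 Hox UMIs, either Hox class, another cell filter and doublets removed (1611 and 1586). Genes whose stage change differed between the Hox classes numbered 966, and 111 in thinned cells. Genes that differed between the genotypes numbered 1, and 150 without the filter on low counts. Where no value above shows the cause of a change, the cause was not tested. Across the other settings for the change in controls, in which 211 to 214 of 214 named genes had a value, the sign changed for Acta2 (-0.043) and Tagln (-0.71), both in cells without Hox group 3. In the Tbx1 null libraries alone genes of opposite sign included Dlx3 (-1.10), Dlx4 (-1.72), Barx1 (-1.23) and Gm42418 (-2.30). Of the named genes 149 were no longer called in the 6-library fit, against 17 with total UMI scaling. No paired analysis was possible, because the libraries of the stages were pools of different embryos and the E9.5 group has 1 library. The single E9.5 library limits every stage result, and the smallest change called was 0.63 on the log2 scale.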

Other observations

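Genes that were lower at E10.5 had shorter 3′ untranslated regions, with a median of 555 bases, than genes that were higher, with 1462 bases, and all tested genes had a median of 975 bases. The region is that of the annotated transcript, and the transcript ends used in these cells were not measured. Several abundant falling genes encode small proteins, such as Rpl38, Rpl39, Polr2l and Cox17. The share of mitochondrial UMIs in the members, at a median of 1.91%, 4.35% and 2.85% in the order of the libraries, moved with stage as well, and its part in the length difference was not tested.

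Lars2, a mitochondrial leucyl-tRNA synthetase gene chosen after its values were seen, stood at 23.0, 84.2 and 174 CPM in the 3 control libraries, in the same order as Gm42418.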
